A study of Saccharomyces cerevisiae with 26 samples.

Results

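The first 10 min after a pulse of 0.2 g/l glucose were followed on 5 arrays, taken at 2, 4, 6, 8 and 10 min, of the 26 arrays of the series. They were chosen by dose and time alone. Saccharomyces cerevisiae, budding yeast, was grown in a galactose chemostat, a continuous culture held at a constant dilution, and glucose was added once. Each array compared total RNA of 1 time after the pulse (Cy5) with the same system at t=0 (Cy3), and its values are log2 ratios, so that 1 means a doubling and -1 a halving. Also used were the 4 arrays of 15 to 45 min and the 3 of 90 to 150 min after 0.2 g/l, called the middle and the late window, and the 4 arrays of 3, 5, 7 and 10 min after 2 g/l. All had galactose as the carbon source before the pulse. The strain is not given in the sources used here. Each time was measured on 1 array with no dye exchange, and no label names a second culture at a dose. Errors below are therefore spreads between times, which hold real change as well as noise, and dose, culture and t=0 sample cannot be told apart. A positive value is read as more RNA in Cy5, a reading that the deposited table does not spell out.

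Glucose is the preferred sugar of yeast. Its arrival closes down the genes for galactose, for other poor carbon sources and for building glucose from smaller molecules, through loss of Snf1 kinase activity and the repressor Mig1. The repressor Rgt1, with its partners Mth1 and Std1, holds the hexose transporter genes off until the sensors Snf3 and Rgt2 lift it. Protein kinase A, switched on by Ras and by the receptor-coupled Gpa2, turns on genes of ribosome building and turns off stress genes driven by Msn2 and Msn4.

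The spread of all genes was smallest at 2 min, with an SD of 0.424, and stood at 0.697, 0.6, 0.662 and 0.743 at 4, 6, 8 and 10 min. Between 5458 and 5566 genes had a value, and duplicate spots of a gene correlated, across genes, at 0.348 at 2 min and 0.717 at 10 min. The 4 min array stood apart. Of 358 genes that passed 2-fold on some array but not at 10 min (6.73% of the 5320 genes with a value on all 5 arrays), 208 were past it downwards at 4 min, and 129 were past it on the 4 min array alone. Past 2-fold on 1 other array alone were 15 genes at 2 min, 30 at 6 min and 66 at 8 min. For single genes whose call on the mean of the 5 arrays is given below, its loss without the 4 min array is stated.

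The response built up array by array. At 2 min 40 genes were at least 2-fold higher than t=0, and 104, 205, 322 and 356 were so at 4, 6, 8 and 10 min. At least 2-fold lower were 147, 372, 301, 334 and 427 genes at the same times. The mean over the 5 arrays was tested against 0 by limma, with the spread taken from all 26 arrays and p-values adjusted over all 5372 genes tested. It called 1600 genes (29.8%), of which 973 (18.1%) were higher and 627 (11.7%) lower. It called 633 higher and 363 lower without the 10 min array, 648 and 395 without the 8 min array, and 721 and 400 without the 6 min array. Without the 4 min array it called 797 higher and 427 lower genes, and without the 2 min array 975 and 678. Counts of list members below are to be read beside 18.1% and 11.7%, or beside these totals where 1 array is left out. In RNA of a whole culture, a lower value from fewer cells of a kind and from less RNA per cell cannot be told apart, and the ratios carry no measure of total RNA.

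Onset was taken as the first array on which a gene was at least 2-fold from t=0 and stayed so, with the same sign, to 10 min. By this rule 346 of 5320 genes (6.5%) came to be higher and 389 (7.31%) lower, while 4227 (79.5%) never passed 2-fold. Genes on the higher side started at 2 min in 8 cases (0.15%), at 4 min in 70 (1.32%), at 6 min in 86 (1.62%), at 8 min in 94 (1.77%) and at 10 min in 88 (1.65%). On the lower side the numbers were 43 (0.808%), 42 (0.789%), 48 (0.902%), 80 (1.5%) and 176 (3.31%). The last of these classes cannot be checked for persistence within the window, since 10 min is its only array. Without the 4 min array, the 70 higher and 42 lower genes of that class must move to 6 min by the rule. The 6 min classes then held 156 higher and 90 lower genes, and 623 of the 735 genes kept their onset. This does not test the timing, and the totals are fixed by the 10 min array. With quantile normalization the rule gave 160 higher and 353 lower genes.

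**Figure D1:**
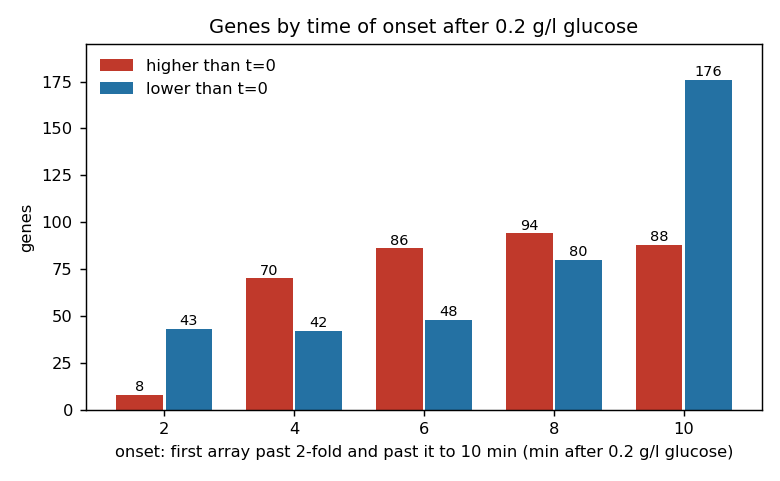
Number of genes (vertical axis) by the first array past 2-fold that was followed by no return before 10 min (horizontal axis, min after 0.2 g/l glucose), for genes higher than t=0 (left bar of each pair) and lower (right bar). On the higher side 8 genes start at 2 min and 70 to 94 at each later time, and on the lower side the largest class, 176 genes, is that of 10 min.

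The lower class of 2 min was of mixed quality. All 8 genes of the higher class of 2 min had a value on each of the 4 early arrays after 2 g/l, as had 94.2% of the 5320 genes, but only 13 of the 43 lower genes did. The other 30 lacked a value on at least 1 of those arrays, had a median of -2.80 on the 4 min array and of -1.22 in the late window, and 19 of them were still 2-fold from t=0 late. Whether dim spots play a part in them was not tested. The 13 complete genes were 7 of the iron response (ARN1, ENB1, FET3, FIT2, FRE5, SIT1 and TIS11) and ISF1, MPC3, RGI1, RGI2, RNR1 and TMA10, a list drawn up after the values were seen.

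The 8 genes higher from 2 min on belonged to several functions. AQR1, a plasma membrane exporter of short-chain acids and amino acids, had 1.80, 3.08, 3.59, 3.73 and 4.12 at 2, 4, 6, 8 and 10 min. It was already more than 3-fold up on the first array and still climbing on the last, with a mean of 3.26 ± 0.90 (SD, n = 5, limma adjusted p = 4.84e-06). VID24, the receptor subunit with which the GID ubiquitin ligase recognises gluconeogenic enzymes for destruction, had 1.59, 2.33, 2.56, 2.77 and 2.48. RRN11, a subunit of the core factor of RNA polymerase I, had 1.38, 1.72, 1.80, 1.82 and 1.57, and so reached most of its level by 4 min. NSR1, a nucleolar protein of pre-rRNA processing, had 1.06, 1.83, 2.24, 2.90 and 2.75. PDE2, the high-affinity cAMP phosphodiesterase that opposes protein kinase A, had 1.18, 1.46, 1.25, 1.19 and 1.03, nearly level over the whole window. The uncharacterised YGR079W had 1.34, 2.03, 2.13, 2.00 and 1.48. YOR338W and GPP1, a glycerol 3-phosphatase, complete the class and were named after their values were seen. All 8 were called in the test of the mean.

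Among the first genes to be lower were 4 of respiratory metabolism and stress. MPC3, the mitochondrial pyruvate carrier subunit used during respiration, had -1.56 at 2 min, then -3.02, -3.46, -3.25 and -3.34. ISF1, a gene linked to respiratory growth, had -2.13, -3.61, -3.16, -3.03 and -2.46. TMA10, a ribosome-associated protein induced by stress, had -2.12, -2.73, -2.59, -2.87 and -3.16, and RGI2, a protein of respiratory energy metabolism, had -1.7, -3.04, -3.07, -3.41 and -3.23. All were past 2-fold at 2 min and lower still at every later time. Their means were -2.92 ± 0.78 for MPC3, -2.88 ± 0.59 for ISF1, -2.70 ± 0.38 for TMA10 and -2.89 ± 0.68 for RGI2 (SD, n = 5, limma adjusted p at most 1.15e-05). HAP4, the limiting subunit of the HAP activator of respiratory genes, was lower without staying past 2-fold, at -0.96, -1.21, -0.91, -0.81 and -0.47.

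**Figure D2:**
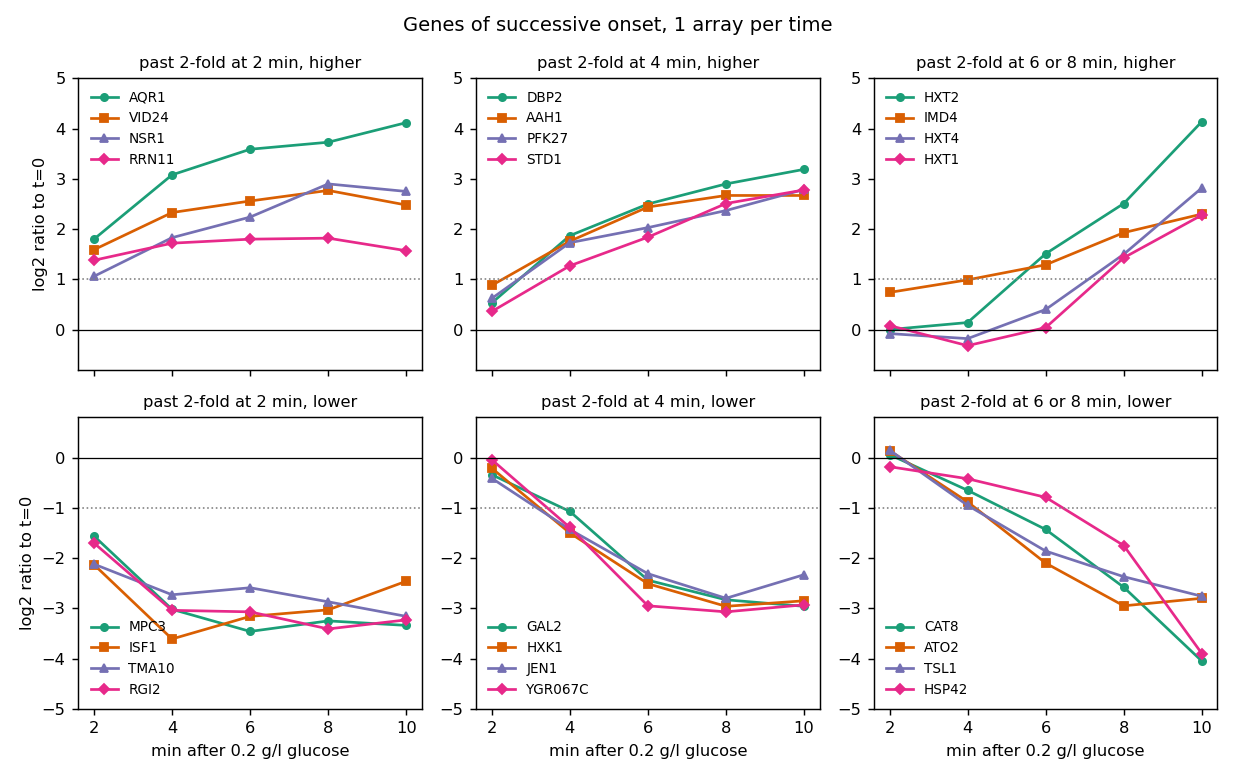
Log2 ratio to t=0 (vertical axes) against min after 0.2 g/l glucose (horizontal axes) for 24 genes, 1 array per time, higher genes in the upper row and lower genes in the lower row, by onset at 2 min (left), 4 min (centre) and 6 or 8 min (right). Dotted lines mark 2-fold. The left genes are past it on the first array, MPC3 at -1.56, while HXT2 and HXT4 leave 0 only after 4 min.

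As a list, the iron genes were lower from the first array on. Their lowest median was on the 4 min array, the one that stood apart with many low values. The list of iron uptake and iron response genes, most of them targets of the iron-sensing activator Aft1, had medians of -0.48, -0.99, -0.74, -0.64 and -0.75 at 2, 4, 6, 8 and 10 min, against 0.05 to -0.01 over all genes. Among the 14 lists whose 10 min median was at least 0.5 from t=0, it alone was past 50% of that median at 2 min. Among lists under that cut, meiosis and sporulation genes had medians of -0.26, -0.50, -0.43, -0.37 and -0.37. Of 26 tested 9 were lower (34.6%), beside 11.7% of all genes, and 3 were lower without the 4 min array. Of the 30 members of the iron list 20 were lower (66.7%) and 1, the activator gene AFT2 at a mean of 0.33, was higher by the test of the mean. The 20 lower calls came out at 20 without each single array in turn. TIS11, the protein that breaks down mRNAs of iron-using proteins under iron shortage, had -1.96, -2.31, -2.66, -2.62 and -2.64. SIT1, a siderophore transporter, had -1.49, -1.67, -2.08, -2.37 and -2.43, and FIT2, a cell wall protein that holds siderophores, had -1.86, -2.12, -2.21, -2.45 and -2.90. The siderophore transporters ARN1 (mean -1.37) and ENB1 (mean -1.62), FRE5 of the ferric reductase family (mean -1.84) and the ferroxidase FET3 (mean -1.32) were also past 2-fold at 2 min. MRS4, the mitochondrial iron carrier, was at -1.03, -1.41, -0.99, -1.12 and -1.31. FTH1, the vacuolar iron permease, came later, at 0.11 at 2 min and -1.7 at 10 min. HMX1, heme oxygenase, was short of 2-fold at 2 min, at -0.66, and had -1.75 at 10 min. It was among the genes called lower in the test of the 2 and 4 min arrays given below.

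Part of the iron difference remained in the late window, where the list median was -0.34 and FIT2 stood at -2.45 ± 0.59 (SD, n = 3). Set against the late window, the early window was lower for 6 of the 30 genes, beside 1.19% of all genes, among them TIS11 with -2.44 ± 0.30 early and -1.11 ± 0.07 late. For FIT2 the difference of the 2 windows was 0.15 ± 0.36 (SE). Where a ratio is the same early and late, an offset of the t=0 sample and a change after the pulse cannot be told apart. After 2 g/l the same list had medians of 0.08, -0.04, -0.05 and 0.01 at 3, 5, 7 and 10 min, and reached -1.60 at 90 min.

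Amino acid biosynthesis genes were another group away from t=0 on the first array, on the higher side. The list median was 0.46, 0.56, 0.51, 0.39 and 0.32, highest at 4 min, and 0.31 late. Of 62 members tested 40 were higher (64.5%), beside 18.1% of all genes, and 1 lower. Set against the late window, the early window was higher for 1 of the 62 (1.6%), beside 2.6% of all genes. For most of the list, then, an offset of the t=0 sample and a change after the pulse cannot be told apart. The arrays at 2 and 4 min, tested alone, called 85 of 5307 genes (1.6%), 34 higher (0.641%) and 51 lower (0.961%). Of the 34 higher calls 11 were of this list, and of the 51 lower calls 10 were of the iron list. Without the 4 min array that test rests on 1 array and keeps 2 calls, TIS11 and MSS2, and without the 2 min array it calls 8 higher and 48 lower genes. ARG1, of arginine synthesis, had 1.08, 0.92, 0.49, -0.04 and -0.27, and ASN1, asparagine synthetase, 1.06 at 4 min and 0.17 at 10 min. HIS4, of histidine synthesis, had 0.98, 0.69, 0.32, -0.11 and 0.21. The call on its mean is lost without the 2 min array (adjusted p = 0.12) or the 4 min array (adjusted p = 0.089). These 3 genes had fallen toward t=0 by 8 min, unlike TRP5, of tryptophan synthesis, with 0.74, 0.84, 0.55, 0.38 and 0.67. ARG1 went on to -1.10 at 15 and 20 min and stood at 0.79 ± 0.18 late (SD, n = 3). Its first values therefore cannot be told apart from an offset of the t=0 sample. GCN4, the activator of the whole pathway, was at 0.45, 0.56, 0.31, 0.72 and 0.76 (limma adjusted p = 0.000336).

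**Figure D3:**
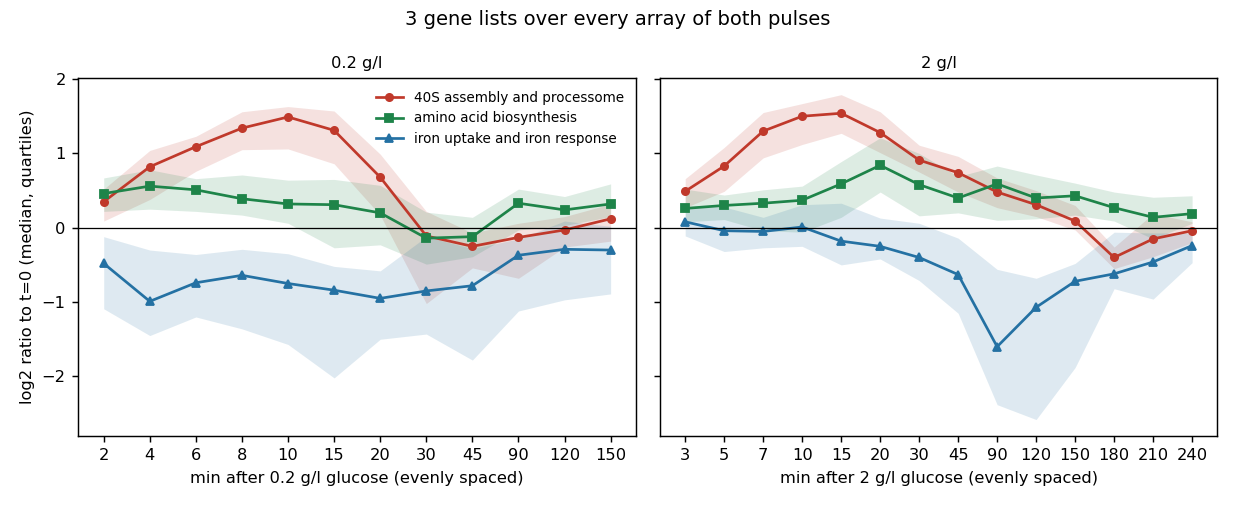
Median log2 ratio to t=0 (points, vertical axis) with the quartiles of the members (bands) on every array, left after 0.2 g/l and right after 2 g/l (horizontal axis, min, evenly spaced), for the 40S assembly, amino acid biosynthesis and iron lists. After 0.2 g/l the iron median is -0.48 at 2 min, and after 2 g/l it stays between -0.05 and 0.08 to 10 min and is -1.60 at 90 min.

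Genes of ribosome building followed, mainly from 4 min on. The 40S assembly list, factors that process pre-rRNA for the small subunit, had medians of 0.35, 0.82, 1.09, 1.34 and 1.49, and the 60S assembly list 0.26, 0.80, 1.12, 1.39 and 1.34. Of 67 tested 40S factors 52 were higher (77.6%) and 1 lower, and of 74 tested 60S factors 58 were higher (78.4%) and 2 lower. Of all genes 18.1% were higher. Onset on the higher side fell at 4 or 6 min for 39 of the 66 40S factors and for 40 of the 73 60S factors with complete values, beside 156 such genes among all 5320. DBP2, an RNA helicase, had 0.53, 1.87, 2.50, 2.90 and 3.19. DHR2, another helicase, had 0.37, 1.31, 1.68, 1.90 and 2.30, and NOG2, a GTPase of 60S export, had 0.72, 1.59, 1.95, 2.27 and 2.12. RNA polymerase I and III genes followed the same order, with medians of 0.18, 0.46, 0.65, 0.85 and 0.80, and 22 of 29 higher (75.9%). RPA49, a polymerase I subunit, had 0.39, 1.03, 1.56, 2.04 and 2.11.

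Cytosolic ribosomal protein genes came after their assembly factors. Their list, with a median of 0.01 at 2 min, had 0.18, 0.49, 0.78 and 0.63 at the later times. By 10 min 20 of 130 passed 2-fold upwards, 18 of them at 8 or 10 min, beside 6.5% of all genes by 10 min. Of 132 tested 70 were higher (53.0%), beside 18.1% of all genes, and 1 lower. The higher count moved between 24 (without the 8 min array) and 89 (without the 2 min array), and was 29 and 36 without the 10 and 6 min arrays. RPS9A had 0.20, 0.68, 1.13, 1.40 and 1.30. Many of these genes have a near-identical copy, and the array cannot be assumed to separate the pair. Mitochondrial ribosomal protein genes had medians of 0.00, 0.02, 0.00, 0.00 and -0.17, with 4 higher (5.9%) and 6 lower (8.8%) of 68. Both shares were under those of all genes, 18.1% and 11.7%. Leaving out 1 array, 0 to 3 were higher.

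Purine and one-carbon genes, which make nucleotides for RNA, rose with ribosome building: 31 of 39 were higher (79.5%) and none lower, with medians of 0.19, 0.42, 0.65, 0.79 and 0.93. Of all genes 18.1% were higher. The higher count of the purine list was 19 without the 10 min array. AAH1, adenine deaminase, had 0.88, 1.76, 2.44, 2.67 and 2.67. IMD4, of GTP synthesis, had 0.74, 0.99, 1.29, 1.93 and 2.30, and URA7, CTP synthase, had 0.39, 1.23, 1.43, 2.04 and 2.07. Translation factors had medians of 0.14 at 2 min and 0.62 at 10 min, with 23 of 35 higher (65.7%), and glycolysis and fermentation genes 0.09 and 0.56, with 12 of 23 higher (52.2%) and 2 lower. Without the 10 min array these higher counts were 12 and 6, and without the 8 min array 15 and 6. PFK27, which makes the glycolysis activator fructose 2,6-bisphosphate, had 0.62, 1.73, 2.03, 2.37 and 2.79.

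**Figure D4:**
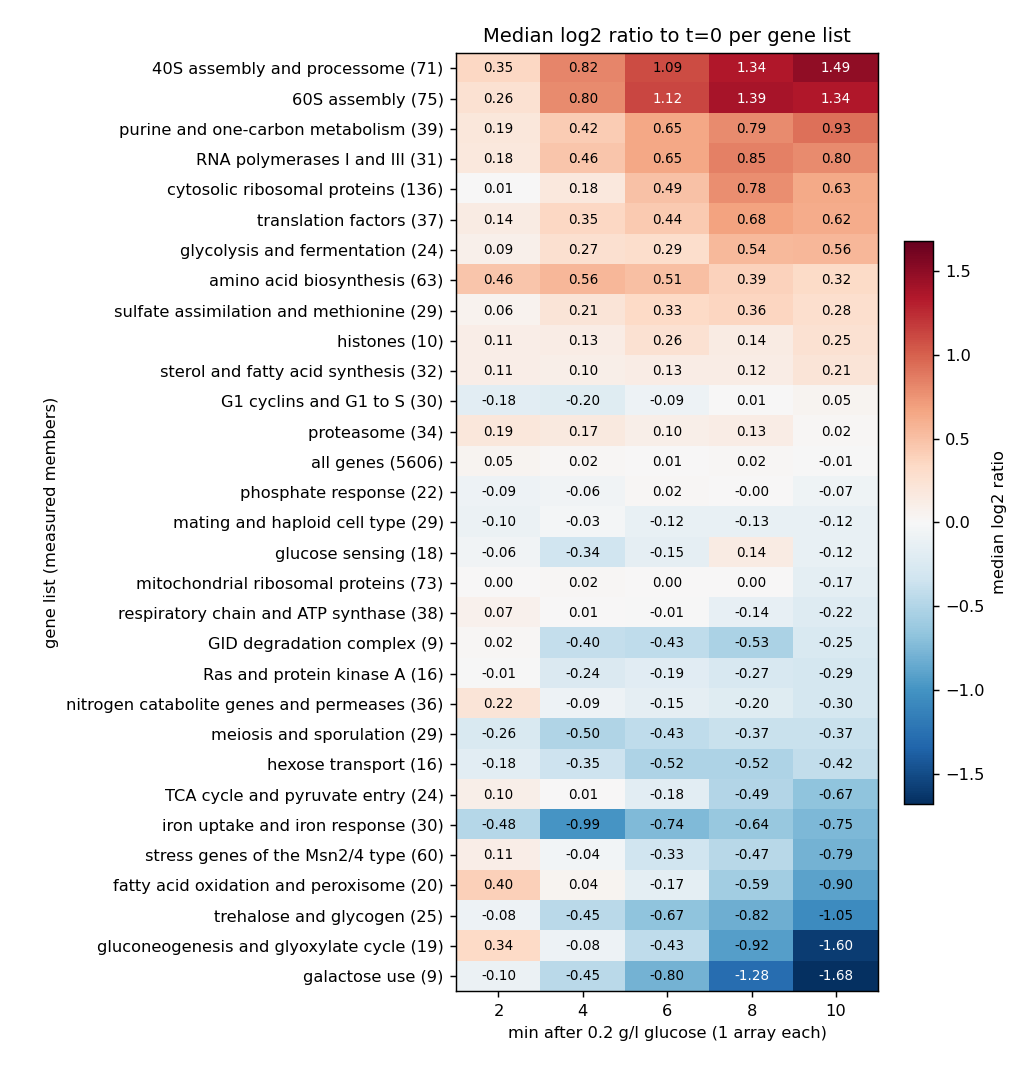
Median log2 ratio to t=0 (colour and printed value) of each of 30 gene lists and of all genes (rows, number of measured members in brackets) on the 5 arrays (columns, min after 0.2 g/l glucose), sorted by the 10 min value. The 40S assembly list ends at 1.49 and galactose use at -1.68, and the iron list is at -0.48 on the first array.

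Galactose genes were lower step by step. The 9 genes of galactose use had medians of -0.10, -0.45, -0.80, -1.28 and -1.68, so that the list passed 50% of its 10 min value only at 8 min. By the test of the mean 5 were lower (55.6%), beside 11.7% of all genes, against 3 without the 10 min array. GAL2 and PGM2 started at 4 min, ahead of the other genes of the list. GAL2, the galactose permease, had -0.34, -1.07, -2.44, -2.83 and -2.96 (limma adjusted p = 0.00334). PGM2, phosphoglucomutase, had -0.19, -1.10, -1.71, -2.60 and -2.54. GAL3, the galactose sensor that frees Gal4, had -0.17, -0.75, -1.16, -1.47 and -1.59 (adjusted p = 0.00932, and 0.0557 without the 10 min array). GAL80, the inhibitor of Gal4, had -0.10, -0.45, -0.80, -0.87 and -0.75. Among the 3 clustered enzyme genes, GAL7 had 0.07, -0.27, -1.22, -1.60 and -2.49, GAL10 had 0.32, -0.01, -0.61, -1.10 and -1.68, and GAL1 had 0.40, 0.15, -0.69, -0.21 and -1.05. All 3 were at or above the t=0 level at 2 min and past 2-fold below it at 10 min. GAL7 alone of them was called in the mean (adjusted p = 0.0404), and that call is lost without the 6, 8 or 10 min array (adjusted p = 0.0965 to 0.225). GAL4, the activator itself, had -0.38, -0.65, -0.66, -0.63 and -0.25 and was not called.

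Genes of gluconeogenesis and two-carbon use crossed the t=0 level within the window. Their list median was 0.34 at 2 min, then -0.08, -0.43, -0.92 and -1.60. Of 17 genes with complete values 13 passed 2-fold downwards, 10 of them at 8 or 10 min, beside 7.31% of all genes by 10 min. MLS1, malate synthase, had 0.78, 0.42, -0.46, -1.26 and -2.01, MDH2, cytosolic malate dehydrogenase, had 0.70, 0.26, -0.44, -1.25 and -1.85, and FBP1, fructose bisphosphatase, had 0.52, 0.47, 0.04, -0.79 and -1.15. PCK1, phosphoenolpyruvate carboxykinase, had 0.73, 0.40, -0.05, -0.58 and -0.89. Since each crossed 0, the test of the mean called only 5 of 19 members of the list lower (26.3%), beside 11.7% of all genes. There were 2 lower without the 10 min array and 8 without the 2 min array. In the late window the list median was 0.31, close to its 2 min value. Of the activators of these genes, CAT8 started at 6 min and ADR1 at 8 min. CAT8 had 0.06, -0.65, -1.43, -2.58 and -4.05, and ADR1 had -0.24, -0.73, -0.91, -1.77 and -2.76. Both calls are lost without the 10 min array (adjusted p = 0.0843 for CAT8 and 0.0699 for ADR1), and the spots of ADR1 differed by more than 0.5. JEN1, the lactate permease, was already at -1.43 at 4 min, after -0.41 at 2 min, and had -2.31, -2.80 and -2.33 later.

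Change within the window was tested as the mean of the 3 arrays at 6 to 10 min minus the mean of those at 2 and 4 min, a difference in which t=0 cancels. With adjusted p, 1 of 5307 genes (0.0188%) passed, ACS1, acetyl-CoA synthetase, with 0.89 and 0.58 at 2 and 4 min, no value at 6 min, and -0.71 and -1.75 at 8 and 10 min (difference -1.97 ± 0.33 SE, adjusted p = 0.0474). No gene passed upwards. At an unadjusted p under 0.05 there were 275 higher (5.18%) and 241 lower (4.54%). In this test real change inside the other windows counts as noise. A fit with a slope in every window, chosen after the data were seen, gave a slope over the 5 arrays that was upward in 188 genes (3.5%) and downward in 189 (3.52%). Downward were 15 of 19 gluconeogenic genes, 10 of 20 fatty acid oxidation genes, 6 of 9 galactose genes, 17 of 58 stress genes and 2 of 30 iron genes. Upward were 22 of 67 40S factors, 23 of 74 60S factors and 28 of 132 ribosomal protein genes.

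**Figure D5:**
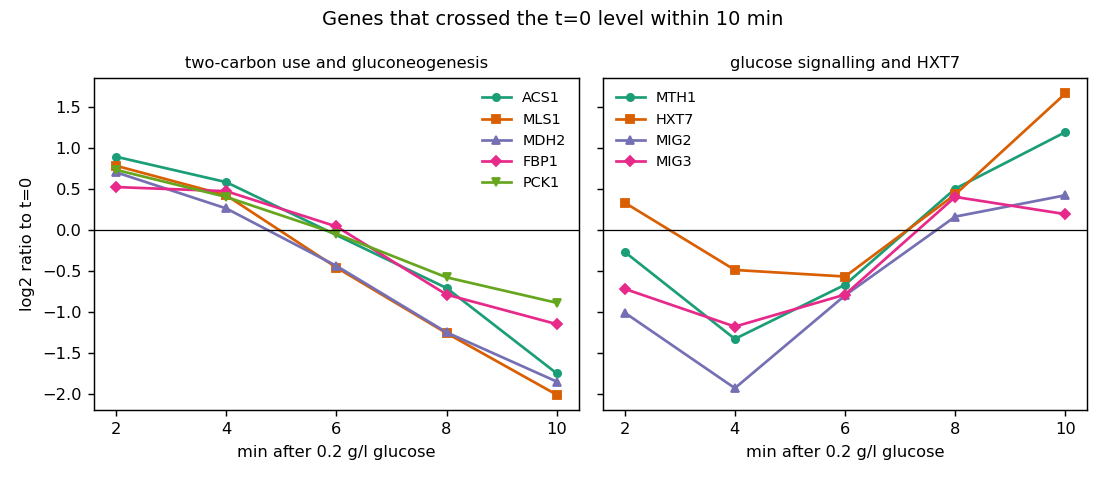
Log2 ratio to t=0 (vertical axis) against min after 0.2 g/l glucose (horizontal axes), 1 array per time, for 5 genes of two-carbon use and gluconeogenesis (left) and 4 genes of glucose signalling and transport (right). The left genes start above 0 and end below it, MLS1 at -2.01. The right genes are below 0 at 4 min and above it at 10 min, MTH1 at 1.19. ACS1 has no value at 6 min, and its line joins 4 and 8 min.

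Hexose transporter genes moved late and in both directions. HXT2, a high-affinity transporter, was at the t=0 level at 2 min and had 0.14, 1.51, 2.51 and 4.14 at 4, 6, 8 and 10 min, the steepest course among the transporters. HXT4, also induced by low glucose, had -0.08, -0.18, 0.40, 1.5 and 2.82, and HXT1, the low-affinity transporter of high glucose, had 0.08, -0.32, 0.04, 1.43 and 2.28. The mean of HXT2 was called (adjusted p = 0.0269), and not without the 6, 8 or 10 min array (0.0594 to 0.2). The slope over the 5 arrays was called for HXT2, HXT4 and HXT1 (adjusted p = 0.00302, 0.00131 and 0.00903). HXT7 had 0.33, -0.49, -0.57, 0.43 and 1.66, while HXT5, a transporter of starved cells, had 0.47, 0.06, -0.22, -0.96 and -1.23. HXT6, nearly identical to HXT7, was not tested and stood at -4.19 on the 4 min array. Of the minor transporters HXT8 to HXT17, no early array value was above 0.12 for any of the 9 on the list. By the test of the mean 3 of the 13 transporter genes tested were lower (23.1%), beside 11.7% of all genes. They were HXT13, HXT16 and HXT17, and 0 were lower without the 4 min array.

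The genes around the sensors differed in their courses. STD1 had 0.36, 1.27, 1.84, 2.51 and 2.78 (limma adjusted p = 0.000888), whereas MTH1, which has the same role at Rgt1, had -0.27, -1.33, -0.67, 0.50 and 1.19. MTH1 thus was 2-fold lower only on the 4 min array, the one that stood apart. Like STD1 it was 2-fold higher at 10 min, with a called slope (adjusted p = 0.0211). The repressor genes MIG2, at -1.01, -1.93, -0.80, 0.16 and 0.42, and MIG3, at -0.72, -1.18, -0.79, 0.40 and 0.19, had the same shape with no call in the mean or the slope. MIG1 stayed between -0.06 and 0.53 and RGT1 between -0.36 and 0.05. REG2, a regulatory subunit of the phosphatase that acts on Snf1, was lower at a mean of -0.58 ± 0.41 (SD, n = 5, adjusted p = 0.00479). Of the Ras and protein kinase A genes, RAS1 had 0.12, 0.64, 1.09, 1.38 and 1.47, and TPK2, a kinase A catalytic subunit, had -0.06, -0.40, -0.81, -1.28 and -1.51. The call on TPK2 is lost without the 8 or 10 min array (adjusted p = 0.0749 and 0.0952).

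Storage and stress genes were lower mainly from 6 min on. The storage and stress lists share members, among them TSL1, GLC3 and PGM2, and PGM2 is also on the galactose list. Their counts are therefore not independent. Trehalose and glycogen genes had medians of -0.08, -0.45, -0.67, -0.82 and -1.05, with 13 of 25 lower (52.0%) and none higher, and 8 lower without the 8 min array. Of all genes 11.7% were lower. TSL1, a trehalose synthase subunit, had 0.15, -0.95, -1.86, -2.37 and -2.76, and GLC3, the glycogen branching enzyme, had 0.22, -0.82, -2.08, -2.53 and -2.28. Stress genes of the Msn2/4 type had 0.11, -0.04, -0.33, -0.47 and -0.79, with 16 of 58 lower (27.6%), and 9 or 10 lower without the 8 or the 10 min array. HSP42, a small heat shock protein, was among the latest, with -0.18, -0.42, -0.79, -1.75 and -3.90, and its call is lost without the 8 or 10 min array (adjusted p = 0.07 and 0.174). Fatty acid oxidation genes had 0.40 at 2 min and -0.90 at 10 min, and TCA cycle genes 0.10 and -0.67. CIT1, mitochondrial citrate synthase, had -0.45, -0.94, -1.20, -1.73 and -2.10. The respiratory chain list stayed between 0.07 and -0.22, with 4 of 36 lower (11.1%), near the share of all genes, and 1 to 4 lower leaving out 1 array. Apart from VID24, no GID ligase gene was higher by the test. Of the 8 tested 3 were lower (37.5%), beside 11.7% of all genes, and 0 were lower without the 10 min array.

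Lists that moved little were the proteasome (0.19 to 0.02), histones (0.11 to 0.26), sterol and fatty acid synthesis (0.10 to 0.21), phosphate (-0.09 to 0.02) and mating genes (-0.13 to -0.03), given as the range of their medians over the 5 arrays. Single genes within them still did. PHO90, a low-affinity phosphate transporter, had 0.28, 1.06, 1.15, 1.37 and 1.49, and PRM4, a pheromone-regulated gene, had -0.84, -1.52, -1.55, -1.75 and -1.74, both called.

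By 90 to 150 min no gene of the higher onset classes averaged 2-fold above t=0, while 24 of 43, 5 of 42, 2 of 48, 7 of 80 and 13 of 176 genes of the lower classes of 2, 4, 6, 8 and 10 min averaged 2-fold below it. Over all genes, counted on each single array and not on the mean of the late arrays, 9, 8 and 16 were 2-fold higher at 90, 120 and 150 min. On the same arrays 615, 128 and 285 were 2-fold lower. These numbers are therefore no direct background for the class counts. Early minus late, which removes any offset shared by the arrays of the pulse, called 203 genes (3.78%), 139 higher early (2.59%) and 64 lower early (1.19%), and 51 without the 10 min array, 71 without the 6 min array, 75 without the 8 min array, 119 without the 4 min array and 441 without the 2 min array. VID24 differed by 3.19 ± 0.31 (SE, adjusted p = 7.13e-06), with 2.35 ± 0.45 early and -0.84 ± 0.58 late (SD, n = 5 and 3). MPC3 differed by -3.17 and TMA10 by -2.69, both being within 0.24 of t=0 late. On the higher side 15 of 67 40S factors and 11 of 74 60S factors were called. The late median of every onset class was between -0.09 and 0.09 except in the lower classes of 2 min (-1.09) and 4 min (-0.35).

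The onset classes were then followed on the early arrays after 2 g/l, which took no part in defining them. At 3 min after 2 g/l the higher classes of 2, 4, 6, 8 and 10 min had medians of 1.29, 0.72, 0.47, 0.38 and 0.33, and at 10 min 2.18, 1.74, 1.49, 1.16 and 0.79. The lower classes had -1.33, -0.83, -0.36, -0.26 and -0.32 at 3 min and -1.24, -1.90, -1.79, -1.61 and -0.99 at 10 min. The medians ran in the order of onset on the higher side at both times, and on the lower side they did not. At 10 min after 0.2 g/l the higher classes had medians of 2.13, 1.66, 1.49, 1.27 and 1.14, so they also differed in size. Their order after 2 g/l therefore cannot tell timing from size of response. The lower class of 2 min rests on few genes here, with 27 of its 43 measured at 3 min and 14 at 10 min. At 10 min after 2 g/l all 8 genes of the first higher class were past 2-fold, and 33 of the 88 of the last, against 7 of 14 measured genes of the first lower class and 71 of 146 of the last. These medians are a description, since the times of the pulses differ.

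Tested against each other, the early windows after 0.2 g/l and 2 g/l differed in 26 genes (0.484%), 13 higher after 0.2 g/l (0.242%) and 13 lower (0.242%). Of the 13 lower genes 10 were of the iron list. TIS11 had -2.44 ± 0.30 after 0.2 g/l and -0.14 ± 0.14 after 2 g/l (SD, n = 5 and 4), a difference of -2.30 ± 0.22 (SE, limma adjusted p = 3.21e-06). SIT1 had -2.01 ± 0.42 and -0.09 ± 0.14, and CCC2, a copper pump that serves iron uptake, had -1.27 ± 0.31 and 0.36 ± 0.11. In these 3 genes no array of one pulse overlapped the other. Higher after 0.2 g/l were ARO3 and LEU4 of amino acid synthesis, GPD2, of glycerol synthesis, and the formate dehydrogenase gene FDH1, with 0.59 ± 0.21 and -0.74 ± 0.55. ARO3 and LEU4 had means of 0.67 and 0.53 early after 0.2 g/l and of 0.63 and 0.59 late. For these genes an offset of the t=0 sample and a change after the pulse cannot be told apart. The calls were 5 higher and 10 lower without the 6 min array, and 7 and 11 without the 8 min array, and at an unadjusted p under 0.05 there were 500 higher genes (9.31%) and 149 lower (2.77%). For galactose genes the difference was not called: GAL2 had -1.93 after 0.2 g/l and -2.69 after 2 g/l, a difference of 0.76 (adjusted p = 0.789).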

How the data were processed

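The values are log2 ratios per spot of a 2-colour array, normalized and deposited by the authors. How they were normalized is not given in the sources used here, and the log2 scale was inferred from the values. Of 10752 spots 6834 were paired with 1 gene and 3918 with none, and all 5606 genes matched the R64 annotation, used for names only. Spots were averaged per gene. Among the 1165 genes on more than 1 spot, 228 had spots differing by a median above 0.5 on the 5 arrays and were passed over as examples unless said. Precision is limited by the number of arrays, and spot brightness was not used here.

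The 26 arrays formed 7 windows of dose and time. limma 3.58.1 (R 4.3.3) fitted window means (lmFit, eBayes) to all 26 arrays for 5372 genes, those having 2 or more values per window. For the first arrays and for the change, the early window after 0.2 g/l was split after 4 min. Tests were two-sided with Benjamini-Hochberg adjustment over all genes tested and a threshold of 0.05. The p-values measure the spread between times within the windows, pooled over both pulses, and rest on no replicate cultures. Alternatives were median centring, quantile normalization, the median of spots, other filters and folds, only the 5 arrays, and leaving out each array. The fit was tested on simulated data.

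Members and lists were chosen with earlier results of these data known. Named genes are, per onset class and direction, the 3 with the largest called mean; the 8 highest and 8 lowest called changes; the 6 highest and 6 lowest calls on the first arrays with the same sign on all 5 arrays; all members of the galactose, hexose transport, glucose sensing and GID lists; and, from every remaining list, at most 4 called members. Other genes were named after their values were seen: ADR1, AFT2, ARG1, ARN1, ARO3, ASN1, CCC2, ENB1, FBP1, FDH1, FET3, FTH1, GCN4, GPD2, GPP1, HIS4, HMX1, LEU4, MDH2, MLS1, MSS2, PCK1, RGI1, TRP5, YOR338W and the pulse differences listed in the closing section. Python 3.11.15 with pandas 2.3.3, numpy 2.4.6 and matplotlib 3.10.9 was used.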

Additional observations from a re-analysis of the deposited data

Results flagged for a closer look

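Some genes had 1 of the 5 early arrays far from the others by Dixon's criterion, which chance meets in about 1 in 20 genes. On the 4 min array these were DIT2 (-6.19), RPR2 (-5.74), HXT6 (-4.19), YIL171W (-4.13), STE5 (-2.40), NDE2 (-2.24), GID7 (-1.99), GLN3 (-1.24) and SNF4 (-0.05). On the 2 min array they were MSS2 (3.6), RGI2 (-1.7), MPC3 (-1.56), PRM4 (-0.84), RSA4 (0.82), MTD1 (0.29) and VID28 (0.03). At 10 min they were SPR28 (-3.16), HOP1 (-2.88), RPT3 (-0.64) and LEU4 (0.26), at 8 min HXT9 (-0.90) and FLO5 (0.14), and at 6 min HTA2 (0.25). For MPC3, RGI2, PRM4, RSA4 and MTD1 the distant value is the first array, before most of their change.

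The early windows after 0.2 g/l and 2 g/l differed, by the limma test of the difference, in 26 genes, given as 0.2 g/l minus 2 g/l on the log2 scale. Lower after 0.2 g/l were the iron list genes TIS11 (-2.30), FIT2 (-2.0), SIT1 (-1.92), ENB1 (-1.87), CCC2 (-1.63), ARN1 (-1.55), FRE1 (-1.48), FET3 (-1.44), FRE5 (-1.33) and SMF3 (-0.63). PUF3 (-1.22), AKR1 (-1.07) and CTR2 (-0.89) were lower too. Higher after 0.2 g/l were SIP18 (1.86), SDH9 (1.44), FDH2 (1.40), GPD2 (1.37), FDH1 (1.33), SPO21 (1.01), FAR1 (0.99), UBC11 (0.98), ARO3 (0.92), FLO5 (0.89), SPS18 (0.86), LEU4 (0.69) and SOM1 (0.68).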

How the results depend on the processing

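No paired analysis was possible because the labels give no replicate numbers, each time has 1 array, and the early windows of the pulses share 1 time. The test of the early mean called 1600 genes, and 295 when a 2-fold change was also required. Leaving out 1 early array gave 996 to 1653. For the 2 to 4 min arrays, with 85 calls, there were 41 among genes measured on all 26 arrays, 899 with quantile normalization, 441 from the 5 arrays alone, 291 without the other arrays with over 5% of genes missing, and 2 to 79 leaving out 1 array. The change within the window, with 1 call, had 0 among genes measured on all 26 arrays, 0 without a filter and 0 from the 5 arrays alone. It had 29 with quantile normalization, 50 without the arrays with many missing genes, 4 with a linear slope, 377 with a slope in every window (added after the data were seen) and 0 to 8 leaving out 1 array. Early minus late, with 203 calls, had 130 with the 2-fold requirement, 911 with quantile normalization, 709 without the arrays with many missing genes, and 51 to 441 leaving out 1 array. The difference of the pulses, with 26 calls, had 17 with the 2-fold requirement, 41 with quantile normalization, 17 without the arrays with many missing genes, and 15 to 28 leaving out 1 array. Onset, with 735 genes, had 1683 at a fold of 1.5 and 234 at a fold of 3. With quantile normalization 376 of the 735 kept direction and time, and 366 did with 50% of the own 10 min value as the mark. In that setting the median onset was 4 min for higher and 6 min for lower genes. Of all early calls 60.8% were higher, against 51.0% with quantile normalization and 71.1% for genes measured on all 26 arrays. In the test of the first arrays 40% were higher, against 28.2% with centred arrays, 51.4% with quantile normalization, 14.3% without the 2 min array and 17.2% with the 2-fold requirement. For early minus late the share was 68.5%, against 54.6% with quantile normalization. For the difference of the pulses it was 50%, against 23.5% without the arrays with many missing genes. Of 166 named genes called in the early mean, 40 lost the call without some single array, 22 genes not called gained it under some alternative, and no called sign turned. The cause of these shifts was not tested.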
